A study of Mus musculus with 6 samples.

Results

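Heat shock chaperones of the cytosol and mitochondria, with their co-chaperones and the transcription factors Hsf1 and Hsf2, were followed as a set of 50 named genes in splenic CD4+ T cells. All 50 were found by symbol among the 22899 genes of each table. The set was put together by gene family with earlier results of the lean and obese libraries in view, so for these genes differences between the groups, and whether the fit over all genes called them, are given as a description, with no p-value. The lean group was C57BL/6 mice on a normal diet, and the obese group was C57BL/6 mice on a high-fat diet with 60 kcal% fat. Feeding began at 6 to 8 weeks of age and lasted up to 4 months, and the cells were sorted by flow cytometry. Each group held 3 libraries, called lean 1 to 3 and obese 1 to 3 here. The sources used here do not give the mice's sex, or say whether a library came from 1 mouse or a pool, so any spread given here may be technical in part.

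Chaperones bind proteins that are unfolded or only partly folded and help them reach or regain their shape. HSP70 proteins hold short exposed stretches in cycles driven by ATP. J-domain proteins (the DNAJ genes) bring them clients and start the ATP step, and HSP110 proteins, most BAG proteins and Hspbp1 release the nucleotide. HSP90 takes over partly folded clients such as kinases and steroid receptors with the help of co-chaperones, and the Hspd1 and Hspe1 chaperonin encloses proteins inside mitochondria. When unfolded protein builds up, HSF1 trimers bind heat shock elements, inverted repeats of the letters GAA, and switch on many of these genes. Activated T cells also raise several of them.

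The inducible HSP70 genes Hspa1a and Hspa1b, the J-domain gene Dnajb1, the small heat shock protein gene Hspb1 and the BAG gene Bag3 were lower in every obese library than in any lean one. The letters before their starts are shown because heat shock elements are the known link among such genes. Each stretch is the 250 bases before the transcription start, from RefSeq (GRCm38.p6), on the gene's own strand, and none overlaps a gene of the RefSeq table. Capitals mark inverted pairs of the element, searched as TTCNNGAA and GAANNTTC (each is its own reverse complement, and pairs may overlap).
Hspa1a (chr17:34972157-34972406, minus strand): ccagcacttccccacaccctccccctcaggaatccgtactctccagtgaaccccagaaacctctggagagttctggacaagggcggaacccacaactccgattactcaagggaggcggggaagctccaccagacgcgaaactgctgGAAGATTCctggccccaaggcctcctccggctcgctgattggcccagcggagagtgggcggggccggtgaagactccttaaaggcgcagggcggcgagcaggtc
Hspa1b (chr17:34959239-34959488, minus strand): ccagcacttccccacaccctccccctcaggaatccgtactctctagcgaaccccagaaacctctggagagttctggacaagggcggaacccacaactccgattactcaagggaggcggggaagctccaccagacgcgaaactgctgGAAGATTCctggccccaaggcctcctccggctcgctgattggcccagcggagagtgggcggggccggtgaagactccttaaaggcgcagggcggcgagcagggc
Hspb1 (chr5:135887669-135887918, plus strand): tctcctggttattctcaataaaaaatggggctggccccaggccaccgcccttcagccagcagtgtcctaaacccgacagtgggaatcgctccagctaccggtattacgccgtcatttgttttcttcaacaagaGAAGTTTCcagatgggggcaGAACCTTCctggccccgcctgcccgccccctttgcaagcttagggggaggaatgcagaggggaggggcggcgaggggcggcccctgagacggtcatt
Dnajb1 (chr8:83607925-83608174, plus strand): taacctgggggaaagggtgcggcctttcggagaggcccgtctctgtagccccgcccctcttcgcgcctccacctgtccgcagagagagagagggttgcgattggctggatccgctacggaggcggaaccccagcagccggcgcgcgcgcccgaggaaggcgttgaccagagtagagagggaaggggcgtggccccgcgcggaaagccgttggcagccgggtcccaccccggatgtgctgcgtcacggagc
Bag3 (chr7:128523333-128523582, plus strand): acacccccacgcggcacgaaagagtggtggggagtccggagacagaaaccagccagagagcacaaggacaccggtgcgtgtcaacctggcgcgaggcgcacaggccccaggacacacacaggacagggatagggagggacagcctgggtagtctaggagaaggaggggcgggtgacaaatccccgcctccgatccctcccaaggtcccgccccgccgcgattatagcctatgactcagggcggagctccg

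The Hspa1a and Hspa1b stretches were identical at 247 of 250 bases, with the substitutions C44T, T47C and T249G (the Hspa1a base, its position from the 5′ end of the printed stretch, then the Hspa1b base). Both held GAAGATTC from 104 to 97 bases before the start. Hspb1 held GAAGTTTC from 117 to 110 and GAACCTTC from 97 to 90 bases before its start. The Dnajb1 stretch held neither motif. For Dnajb1 2 promoter windows are listed, and only the one at the gene's outermost 5′ end was searched. Bag3 held its only motif, GAAGTTTC, 42 to 49 bases downstream, where the first transcribed base is counted as 0. Over windows of 300 bases (250 before the start and 50 from it on), 1 per gene, 12 of the 41 members with a window held an inverted pair (29.3%), against 15.1% of 27025 promoters. The 12 count both Hspa1a and Hspa1b, whose nearly identical stretches are not separate matches. Windows with 3 alternating units (either pair followed, after 2 further bases, by its first 3 letters again) were found for 4 members, Chordc1, Dnajb6, Hspe1 and Hsph1, or 9.76% of 41, against 0.540% of all promoters. These matches describe letters and show no binding.

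**Figure D1:**
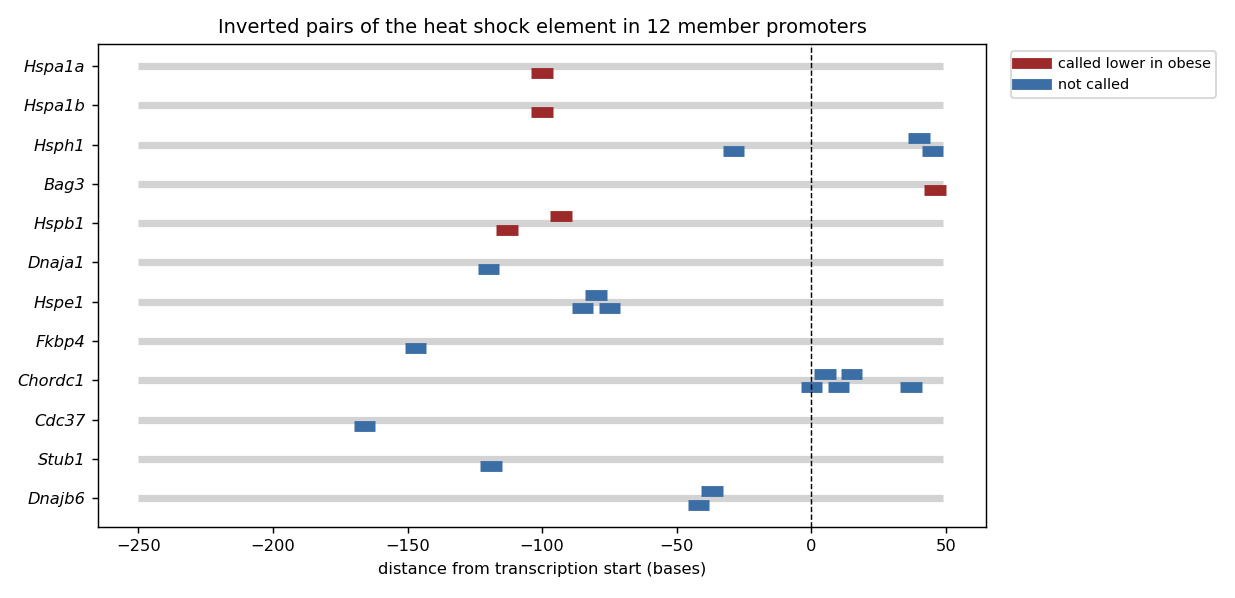
Positions of TTCNNGAA and GAANNTTC pairs (red bars for genes called lower, blue for genes not called) in the 300-base windows of the 12 members that hold any, in bases from the transcription start (dashed line), ordered by the difference between obese and lean libraries. Hspa1a and Hspa1b carry a pair at the same place, and Chordc1, Hspe1 and Hsph1 carry several.

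Before the groups are compared, lean 3 has to be set apart. The 50 genes together made up 0.887%, 0.897% and 1.42% of the summed FPKM (an abundance per transcript length and library size) of lean 1, lean 2 and lean 3, and 0.595%, 0.665% and 0.792% of obese 1, obese 2 and obese 3. In lean 3, 20 of the 48 members that passed the filter on low values (at least 1 FPKM in at least 3 libraries) stood at 1.5 times or more of both other lean libraries, against 1.71% of the 10788 genes that passed. Only Hspa1a went the other way by that measure, with lean 1 and lean 2 each at least 1.5 times lean 3. The median member lay 0.30 above the mean of lean 1 and lean 2 in lean 3 on the log2(FPKM + 1) scale, where the median over all genes was 0.03. Many of the differences below are therefore also given without lean 3.

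The libraries carried T cell transcripts, with Cd4 at 279 to 363 FPKM and Cd3e at 346 to 455 FPKM. The 7 T cell markers Cd3d, Cd3e, Cd3g, Cd4, Cd5, Cd28 and Lat summed to 2367 to 2602 FPKM in lean and 2041 to 2494 FPKM in obese libraries. The CD8 T cell genes Cd8a and Cd8b1 were at 8.29 to 16.6 FPKM and 39.1 to 63.0 FPKM, and neither was called. The libraries also held transcripts of other cells, none of whose found marker genes was at 0 in all libraries. Of 10 macrophage and monocyte markers all 10 were called higher in obese libraries, with summed levels of 739 to 832 FPKM in lean and 1726 to 1888 FPKM in obese libraries. All 9 erythroid markers found were called higher (174 to 474 FPKM against 4354 to 29020 FPKM summed), and 6 of 10 neutrophil markers were called lower (603 to 874 FPKM against 162 to 466 FPKM). Of 7 NK cell markers 3 were called lower (270 to 355 FPKM against 195 to 269 FPKM), and of 6 plasma cell markers 1 was called higher (477 to 561 FPKM against 767 to 1387 FPKM). B cell marker sums ran from 367 to 798 FPKM in lean and from 516 to 990 FPKM in obese libraries, with none of 8 called by limma (1 higher at an unadjusted p under 0.05). With each library left out in turn, limma called all 10 macrophage markers and 7 to 8 erythroid markers higher. Neutrophil markers called lower numbered 1 without lean 1 or lean 2, 5 without lean 3, and 4, 3 and 9 without obese 1, 2 and 3. NK cell markers called lower numbered 1 without lean 1, lean 2 or obese 1, 2 without lean 3 or obese 3, and 3 without obese 2. The plasma cell marker Jchain was not called without any 1 lean library, and 4 plasma cell markers were called higher without obese 1. Cd28 of the 7 T cell markers was called higher without lean 3, and 1 dendritic cell marker, Batf3, without obese 1. The part of these cells in the results below was not tested, and in bulk RNA fewer cells of a type cannot be told apart from less RNA per cell. Only FPKM was used, so how many reads lie behind a value is unknown, and since the labels do not tie libraries to separate mice, p-values measure the spread between libraries.

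Obese and lean libraries were compared to ask which chaperone transcripts differ with diet-induced obesity. A gene was called when its p-value, Benjamini-Hochberg adjusted over all 10788 genes in limma, was under 0.05. Of the 48 members that passed the filter, 6 were called lower, where 0.519% of all genes were, and none was called higher, where 5.77% of all genes were (6.28% in either direction). At an unadjusted p under 0.05 the same limma fit had 17 members lower, against 4.01% of all genes, and 3 higher, against 21.9% of all genes. Since this contrast was in view when the members were chosen, nothing is read from these shares. Groups did not overlap for 17 members lower in obese libraries, against 6.15% of all genes, and for 4 higher, against 25.4% of all genes. Without lean 3, 8 members were called lower (0.885% of all genes) and none higher (5.7% of all genes), and groups did not overlap for 18 lower (14.1% of all genes) and 13 higher (41.6% of all genes). The median difference over the 48 was −0.04 (the obese mean minus that of lean libraries, in log2(FPKM + 1)), and that over all genes was 0.10. Without lean 3 the member median was 0.021 and that over all genes 0.12. Median-of-ratios scaling moved the median over all genes from 0.10 to −0.00, so small positive differences are to be read against 0.10. By family the median was −0.79 for HSP90, −0.59 for the chaperonin, −0.45 for the co-chaperones, −0.36 for HSP70 and −0.19 for HSP110, against 0.03 for the BAG genes with Hspbp1, 0.10 for the HSF genes and 0.11 for the J-domain genes. Without lean 3 the first 5 were −0.55, −0.26, −0.24, −0.19 and 0.24, so that for HSP110 turned (as it did with library weights, 0.04). The filter also moved these medians, to −0.08 for HSP70 with no filter, and to −0.68 for HSP70 and −0.74 for HSP110 with a minimum of 5 FPKM. Hspa1l, an HSP70 gene known mainly from testis, and Serpinh1, the collagen chaperone of the endoplasmic reticulum, did not pass the filter, at 0.31 to 0.83 FPKM and 0.05 to 0.15 FPKM.

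**Figure D2:**
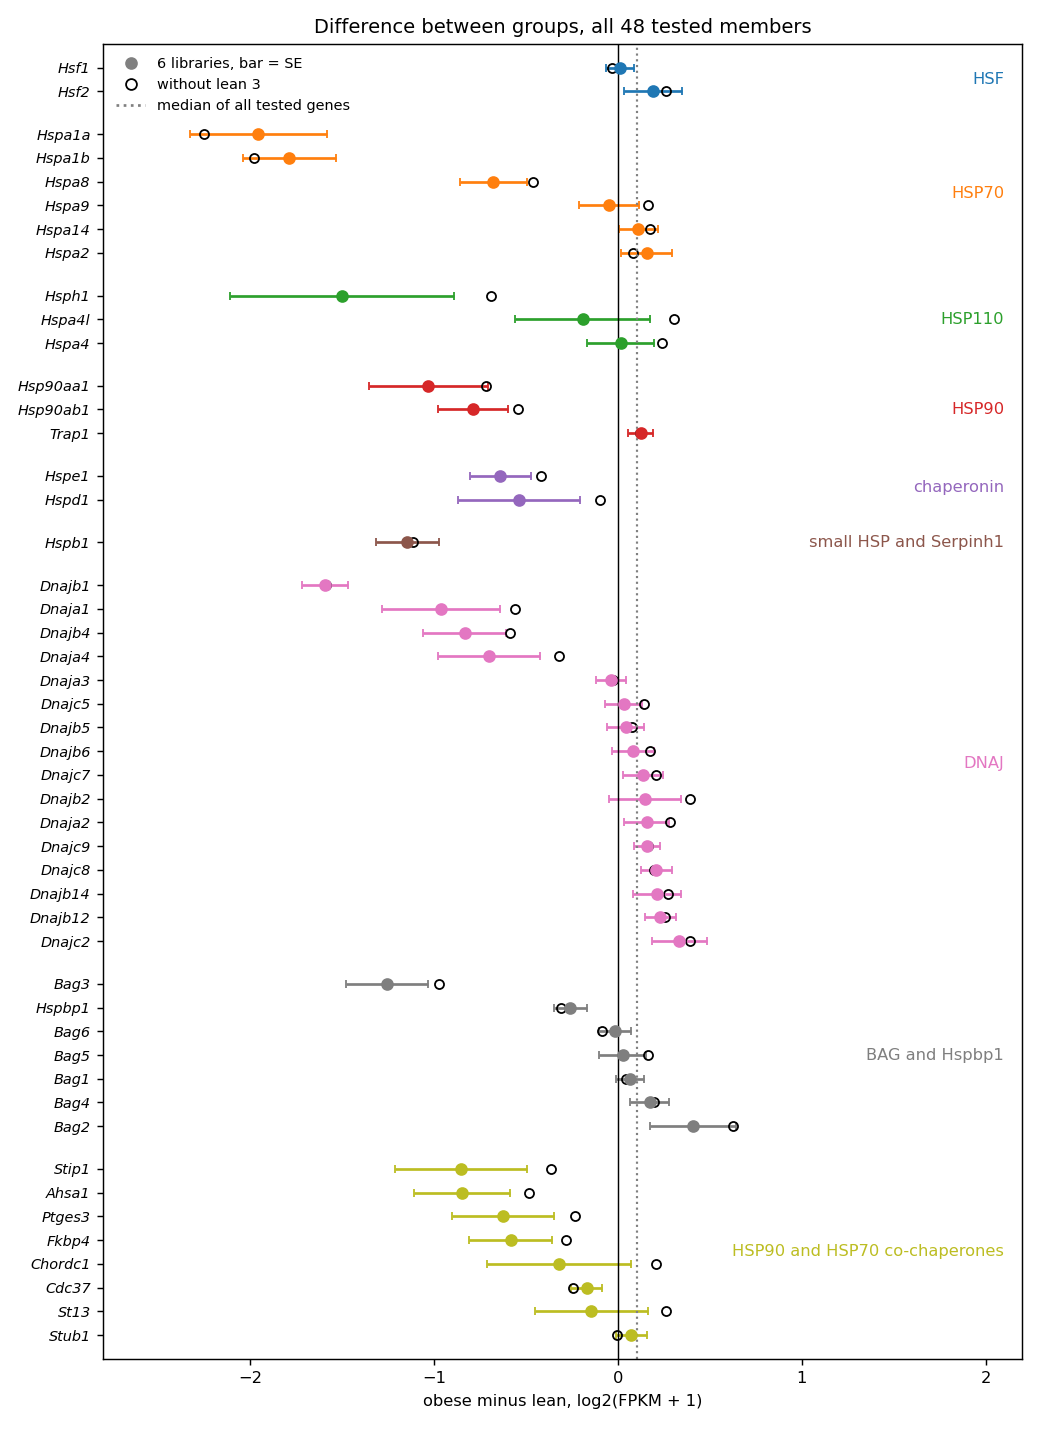
Differences between obese and lean libraries on the log2(FPKM + 1) scale for the 48 members that passed the filter, coloured by family: filled points are from all 6 libraries with limma's SE as bars, open circles are without lean 3, and the dotted line is the median over all genes, 0.10. Leaving out lean 3 moves Hsph1 from −1.50 to −0.69 and leaves Dnajb1 at −1.59.

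The transcription factors themselves did not separate the groups. Hsf1 (chromosome 15, 76477362 to 76501155, GRCm38), the main activator of the heat shock response, stood at 35.6, 34.9 and 32.0 FPKM in lean 1, 2 and 3 and at 32.9, 35.9 and 34.5 FPKM in obese 1, 2 and 3. Its groups overlapped, with a difference of 0.01 ± 0.08 (SE) on the log2 scale. Hsf2, a partner factor with roles in development, was at 3.72, 2.33 and 3.58 FPKM in lean and at 3.50, 3.39 and 4.40 FPKM in obese libraries. It also overlapped, with a difference of 0.19 ± 0.16 (SE). A transcript level does not report HSF1 activity, which is set mainly on the protein.

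Within HSP70, the stress-inducible pair was low in obese libraries. Hspa1a (gene 193740, chromosome 17, 34969359 to 34972156, GRCm38) stood at 189.5, 199.4 and 105 FPKM in lean 1, 2 and 3 and at 33.8, 25.3 and 74.4 FPKM in obese 1, 2 and 3. Hspa1b (gene 15511, chromosome 17, 34956429 to 34959238) stood at 380.1, 367 and 251 FPKM in lean and at 86.7, 67.7 and 141 FPKM in obese libraries. For both genes every obese library was below every lean one, lean 3 was the lowest of its group and obese 3 the highest of its own. The log2 differences were −1.96 ± 0.37 and −1.79 ± 0.25 (SE), and both genes were called lower. Without lean 3 they were −2.25 and −1.98. Hspa1a was not called without lean 1 (−1.83), lean 2 (−1.79) or obese 1 (−1.84), whereas Hspa1b was called in each of the 6 fits that left out 1 library.

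The 2 genes lie 12918 bases apart by their starts on the same strand and encode nearly the same protein. Of the 50-base windows of the longest Hspa1a transcript in GENCODE, 58.8% were also found in that of Hspa1b, so reads may have been split between them and their sum is safer than either value. The sum was 569.6, 566 and 356 FPKM in lean 1, 2 and 3 and 120.5, 93.0 and 215 FPKM in obese 1, 2 and 3. Hspa1l, whose start lies 547 bases from that of Hspa1a on the other strand, stayed under the filter in both groups.

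Hspa8, the constitutive HSP70 of the cytosol, was the most abundant member at 1965, 2059 and 3157 FPKM in lean and 1282, 1458 and 1668 FPKM in obese libraries. Its groups did not overlap, lean 3 was the highest library, and its difference of −0.68 ± 0.18 (SE; −0.46 without lean 3) was not called. Relative to Hspa8, the summed inducible pair came to 29.0%, 27.5% and 11.3% in lean 1, 2 and 3 and to 9.40%, 6.38% and 12.9% in obese 1, 2 and 3. By this ratio lean 3 lay among the obese libraries, below obese 3. Hspa9, the HSP70 of mitochondria, was at 48.5, 43.9 and 72.0 FPKM in lean and at 48.9, 50.8 and 55.7 FPKM in obese libraries, overlapping with lean 3 and above lean 1 and lean 2 without it. Hspa14, a ribosome-associated HSP70, and Hspa2, known mainly from male germ cells, had differences of 0.11 ± 0.11 and 0.16 ± 0.14 (SE), with overlapping groups.

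HSP110 genes were spread widely between lean libraries. Hsph1 (chromosome 5, 149616843 to 149636498), the inducible HSP110, stood at 31.9, 46.0 and 211 FPKM in lean 1, 2 and 3 and at 15.1, 23.7 and 35.2 FPKM in obese 1, 2 and 3. Lean 3 held 5.41 times the mean of the other lean libraries, and obese 3 lay above lean 1. The difference of −1.50 ± 0.61 (SE) was not called and became −0.69 without lean 3. Hspa4l, a relative with a low level here, was at 2.51, 2.0 and 8.07 FPKM in lean and at 2.54, 2.66 and 3.95 FPKM in obese libraries. Hspa4, the constitutive HSP110, was at 22.5, 20.1 and 34.5 FPKM in lean and at 23.2, 24.2 and 28.7 FPKM in obese libraries. Both overlapped only through lean 3, with differences of −0.19 ± 0.37 for Hspa4l and 0.01 ± 0.18 (SE) for Hspa4. Without lean 3 every obese value lay above both lean ones, by 0.30 and 0.24 on the log2 scale.

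Both cytosolic HSP90 genes were lower in obese libraries, and the mitochondrial one was not. Hsp90ab1 (gene 15516, chromosome 17, 45567778 to 45573261), the constitutive isoform, stood at 1038, 1037 and 1721 FPKM in lean and at 646, 686 and 809.8 FPKM in obese libraries. The groups did not overlap and lean 3 was the highest. Its difference of −0.79 ± 0.19 (SE) was called lower with all 6 libraries and without lean 3 (−0.55), but not without any other single library (−0.91 without lean 1 or lean 2, −0.72, −0.76 and −0.88 without obese 1, 2 or 3). Hsp90aa1, the inducible isoform, stood at 116, 117 and 225 FPKM in lean and at 48.9, 64.5 and 110.9 FPKM in obese libraries, a difference of −1.03 ± 0.32 (SE) that was not called (it was without obese 3) and was −0.72 without lean 3. As a percentage of Hsp90ab1 it made up 11.2%, 11.3% and 13.1% in lean and 7.56%, 9.41% and 13.7% in obese libraries, so that ratio overlapped between groups. Trap1, the HSP90 of mitochondria, was at 34.5 to 35.0 FPKM in lean and 37.2 to 38.8 FPKM in obese libraries, higher in each obese library (0.12 ± 0.07, SE, near the 0.10 of all genes) and not called.

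**Figure D3:**
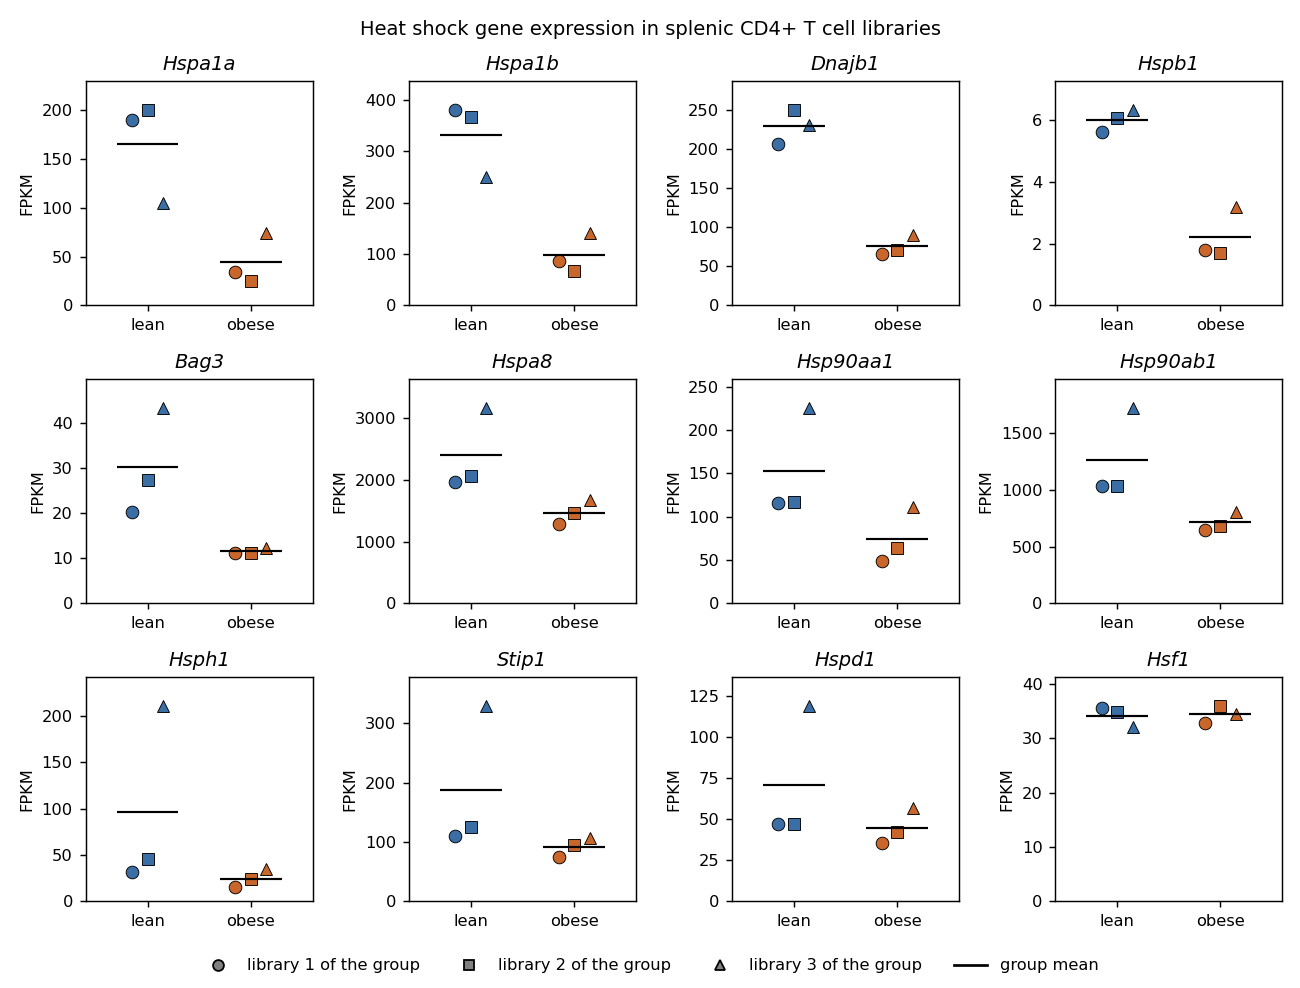
FPKM in each library for 12 members, with lean libraries in blue, obese libraries in orange, symbols for library number and bars for the group mean. Hspa1a, Hspa1b, Dnajb1, Hspb1 and Bag3 do not overlap between groups, lean 3 stands far above the other libraries for Hsph1 (211 FPKM), Stip1 (329 FPKM) and Hspd1 (119 FPKM), and Hsf1 is level.

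The mitochondrial chaperonin was read from 2 neighbouring genes on chromosome 1 whose starts lie 95 bases apart on opposite strands. Hspe1, the lid of the chamber, was at 182, 181 and 287 FPKM in lean and at 129.5, 144 and 132 FPKM in obese libraries, with no overlap and a difference of −0.64 ± 0.17 (SE). It was not called with all 6 libraries but was called lower without lean 3 (−0.42). Hspd1, which forms the chamber, was at 47.1, 47.3 and 119 FPKM in lean and at 35.2, 42.3 and 56.9 FPKM in obese libraries. Obese 3 lay above lean 1 and lean 2, so the groups overlapped, and the difference of −0.54 ± 0.33 (SE) was −0.10 without lean 3. The ratio of Hspe1 to Hspd1 was 3.86, 3.82 and 2.42 in lean 1, 2 and 3 and 3.68, 3.41 and 2.33 in obese 1, 2 and 3, lowest in the third library of each group.

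Hspb1 (gene 15507, chromosome 5, 135887919 to 135889563), a small heat shock protein that holds unfolded proteins without ATP, was scarce. It stood at 5.61, 6.06 and 6.30 FPKM in lean and at 1.78, 1.69 and 3.19 FPKM in obese libraries. The lean values lay close together and all above the obese ones, and the difference of −1.15 ± 0.17 (SE) was called lower and stayed called in each of the 6 fits without 1 library. Its size depended on the value added before taking logs, with −0.61 at 5 FPKM and −1.39 at 0.25 FPKM.

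Of the 16 J-domain genes, 1 was called lower and none higher (limma), and their median difference of 0.11 was close to the 0.10 over all genes. That gene, Dnajb1 (gene 81489, chromosome 8, 83608175 to 83612653), the main heat-induced partner of HSP70, stood at 206, 249 and 230.3 FPKM in lean 1, 2 and 3 and at 65.9, 70.1 and 90.2 FPKM in obese 1, 2 and 3. Lean libraries lay close together, lean 3 did not stand out, and the groups were far apart, with a difference of −1.59 ± 0.12 (SE). It was called in each of the 6 fits without 1 library, between −1.51 and −1.73. Dnaja1, a farnesylated partner of HSP70, was at 77.9, 79.7 and 184 FPKM in lean and at 40.5, 52.3 and 70.8 FPKM in obese libraries, which do not overlap (−0.96 ± 0.32, SE; −0.56 without lean 3). Dnajb4 and Dnaja4, also known as heat-responsive, did not overlap either, with differences of −0.83 ± 0.23 and −0.70 ± 0.28 (SE) that became −0.59 and −0.32 without lean 3, and lean 3 was the highest library for both (Dnajb4 was called without obese 3).

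The remaining 12 J-domain genes had differences from −0.04 to 0.33. Dnajc8, a nuclear protein linked to splicing and the most abundant of them, was at 94.3, 78.8 and 83.7 FPKM in lean and at 100.8, 93.7 and 102 FPKM in obese libraries, with obese 2 below lean 1. Dnajb12, anchored in the membrane of the endoplasmic reticulum, and Dnajc9, a histone co-chaperone, were higher in every obese library, by 0.23 ± 0.08 and 0.16 ± 0.07 (SE), and were not called. Dnajc2, a ribosome-associated J-domain protein, had the largest positive difference of the 12, 0.33 ± 0.15 (SE), with overlapping groups. After median-of-ratios scaling, which sets the median over all genes near 0, the J-domain median became −0.01, and after quantile normalization −0.02, so no direction is given for the family.

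Among the BAG genes and Hspbp1, Bag3 stood apart. Bag3 (gene 29810, chromosome 7, 128523583 to 128546981), which links HSP70 to the small heat shock proteins and to autophagy, was at 20.4, 27.3 and 43.2 FPKM in lean and at 11.1, 11.2 and 12.3 FPKM in obese libraries. The obese libraries agreed closely, all were below the lowest lean one, and the difference of −1.26 ± 0.22 (SE) was called lower in each of the 6 fits without 1 library, at −0.98 without lean 3. Bag1, which ties HSP70 to the proteasome, stood at 73.6, 64.4 and 66.2 FPKM in lean and at 73.6, 70.1 and 69.6 FPKM in obese libraries. Bag6, which guards membrane proteins on their way to insertion, stood at 67.9, 75.7 and 61.9 FPKM and at 70.1, 67.1 and 65.2 FPKM. Both overlapped, with differences of 0.06 ± 0.08 and −0.02 ± 0.09 (SE). Hspbp1, an exchange factor of HSP70 from another family, was lower in each obese library (−0.26 ± 0.09, SE) and Bag4 higher (0.17 ± 0.11, SE), neither called, and Bag2 and Bag5 overlapped.

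None of the 8 co-chaperones was called with all 6 libraries. Stip1, which joins HSP70 to HSP90, was at 109.5, 126 and 329 FPKM in lean and at 74.4, 95.0 and 107.5 FPKM in obese libraries, and lean 3 held 2.79 times the mean of the other lean libraries. Ahsa1, which speeds the ATPase of HSP90, was at 116, 136 and 269 FPKM in lean and at 83.6, 91.2 and 93.8 FPKM in obese libraries. The groups of Stip1 and Ahsa1 did not overlap, and their differences of −0.85 ± 0.36 and −0.85 ± 0.26 (SE) were −0.36 and −0.49 without lean 3. Ahsa1 was called lower without lean 3. Fkbp4 and Ptges3, partners of HSP90 at steroid receptors, did not overlap either (−0.58 ± 0.22 and −0.62 ± 0.28, SE; −0.29 and −0.24 without lean 3). Chordc1, which binds HSP90, and St13, which binds HSP70, turned from −0.32 and −0.15 to 0.21 and 0.26 without lean 3. Cdc37, which delivers kinases to HSP90, was at 185, 185 and 158 FPKM in lean and at 162, 158 and 148 FPKM in obese libraries, with lean 3 among the obese values. Stub1, the ubiquitin ligase that binds both chaperones, had a difference of 0.07 ± 0.08 (SE).

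The members thus differed in which library carried them. For Hsph1, Chordc1, Hspa4l, Stip1, Hspd1, Dnaja1, Ptges3, St13 and Dnaja4, lean 3 was at least 2 times either other lean library, which made 9 of the 25 genes with the largest such ratios among all genes at 5 FPKM or more in lean 3. The list also held P4ha1, a collagen prolyl hydroxylase (16.3, 14.4 and 63.5 FPKM in lean 1, 2 and 3), Ahsa2, a relative of Ahsa1 (12.14, 12.02 and 42.03 FPKM), and Cacybp (32.5, 33.1 and 67.9 FPKM), named after their values were seen. Dnajb1 and Hspb1 were close to level among the lean libraries, at 1.01 and 1.08 times the mean of lean 1 and lean 2 in lean 3. Hspa1a and Hspa1b were at 0.54 and 0.67 times that mean. In the other group, obese 3 was the highest library for 34 of 48 members, against 50.5% of all genes, and it stood at 1.5 times or more of both others for Hspa1a, Hspa1b, Hsp90aa1 and Hspb1, against 3.55% of all genes. Across the 48 members the deviation of lean 3 and that of obese 3 from their groups had a Pearson r of 0.21 (Spearman 0.37), and across all 10788 genes 0.19 (0.31). Genes of one library share its RNA and are not independent.

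**Figure D4:**
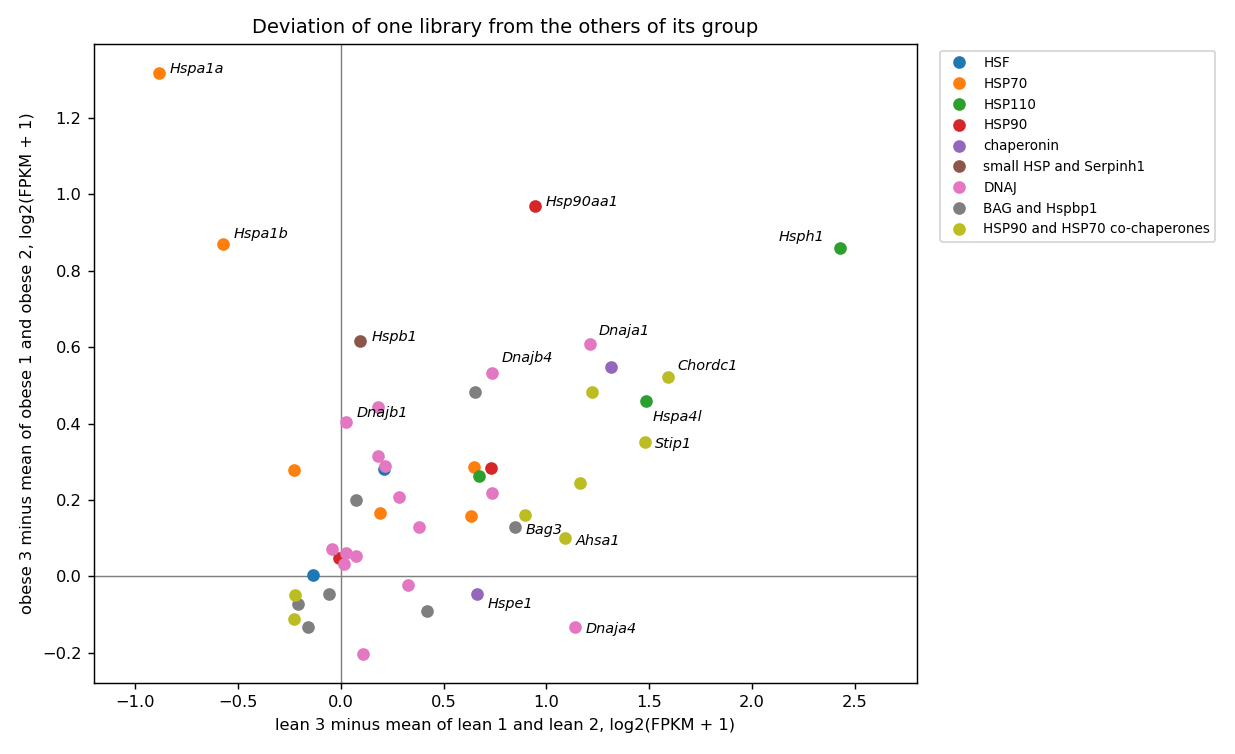
Deviation of lean 3 from the mean of lean 1 and lean 2 (horizontal) and of obese 3 from the mean of obese 1 and obese 2 (vertical), both in log2(FPKM + 1), for the 48 members, coloured by family. Hspa1a and Hspa1b lie to the upper left, low in lean 3 and high in obese 3, and Hsph1, Chordc1 and Stip1 lie to the right.

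Grouped by these patterns, promoter windows with an inverted heat shock pair were found for 4 of 5 members called lower that have a window (Hsp90ab1 has none in the table). The 4 were Hspa1a, Hspa1b, Hspb1 and Bag3. The Hspa1a and Hspa1b stretches were identical at 247 of 250 bases, so they are not separate matches, and the Bag3 pair lies downstream of its start. Windows with a pair were also found for 5 of 15 members that were not called but stood at 1.5 times or more in lean 3 (Hsph1, Hspe1, Dnaja1, Chordc1 and Fkbp4). Hspd1 was among those of the 15 without a pair, although its start lies 95 bases from that of Hspe1. The Hspe1 pairs fall outside the Hspd1 window. Of the 21 others with a window, 3 held a pair (Dnajb6, Cdc37 and Stub1). The groups were formed from the values, so these counts carry no test.

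Other genes of the folding network, with some heat-inducible genes outside it, came from lists made by family or known function. Most of them were not called. Earlier results of these data were known when the lists were chosen, so the p-values given for their genes may carry that choice. Together with the immediate early genes described below, 112 genes passed the filter. Of these, 1 was called lower, where 0.519% of all genes were, and 3 higher, where 5.77% of all genes were. None of the 8 subunits of TRiC, the cytosolic chaperonin, was called by limma (2 lower and none higher at an unadjusted p under 0.05), yet lean 3 was the highest of the 6 libraries for all 8, against 14.0% of all genes. TRiC subunits summed to 851, 831 and 1185 FPKM in lean 1, 2 and 3 and to 793, 819 and 868 FPKM in obese 1, 2 and 3. Of 16 chaperones of the endoplasmic reticulum, 1 was called higher, near the 5.77% share of all genes, and none lower. Their median difference was 0.27, against 0.10 over all genes and −0.04 for the 48 heat shock members. The difference between these sets was not tested. The gene called was Dnajc10, a reductase of the endoplasmic reticulum (0.47 ± 0.10 SE, limma, BH-adjusted p = 0.0264). It was not called without lean 2 or any 1 obese library, or after median-of-ratios scaling. Of 9 mitochondrial proteases and import partners, Htra2 rose (0.42 ± 0.09, SE; limma, BH-adjusted p = 0.0302) and was called without lean 3 but not without any other library. Of 10 heat-inducible genes outside the chaperones, Dedd2, a death-effector protein, fell from 84.5, 116 and 170.1 FPKM in lean to 56.2, 53.3 and 54.6 FPKM in obese libraries (−1.10 ± 0.21, SE; limma, BH-adjusted p = 0.0180), and was not called without lean 2. Of 6 prefoldin subunits, 20 other J-domain genes and 16 other HSP90 co-chaperones, none was called by limma, with 1 lower and 2 higher, 0 and 1, and 2 and 1 at an unadjusted p under 0.05. Of 2 further small heat shock proteins and 2 other HSF genes or regulators that passed the filter, none was called or had such a p. In each list without a call, the gene with the smallest limma BH-adjusted p is given next. The higher ones were Pfdn4 (0.28; limma, BH-adjusted p = 0.108), Dnajc16 (0.31, adjusted p = 0.131) and Rpap3 (0.34, adjusted p = 0.105). The lower ones were Cct7 of TRiC (−0.42; limma, BH-adjusted p = 0.0891), Hspb11 (−0.17, adjusted p = 0.283) and Hsf4 (−0.20, adjusted p = 0.404), and none of the 6 passed the test.

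Immediate early genes, which respond within minutes to activation and to handling of cells, were set beside the heat shock genes. Of 23, 1 was called higher, near the 5.77% share of all genes, and none lower (0.519% of all genes). The gene called was Dusp2, a phosphatase (0.52 ± 0.11 SE, limma, BH-adjusted p = 0.0260). Dusp2 was not called without lean 1, lean 2, obese 1 or obese 2. The summed levels of the 23 overlapped between groups, at 2119, 1973 and 1645 FPKM in lean 1, 2 and 3 and 2007, 1763 and 2358 FPKM in obese 1, 2 and 3. Within groups, 7 of the 23 followed the order of Hspa1b (lean 1 above lean 2 above lean 3, and obese 3 above obese 1 above obese 2), against 2.58% of all genes. Among the 48 heat shock members Hspa1b alone had this order, and Hspa1a did not. The 7 immediate early genes were Egr3, Fos, Fosb, Ier3, Jun, Ppp1r15a and Dusp1. The order was also found for Ier5 of the 10 heat-inducible genes and for Hsf4 of the 2 other HSF genes or regulators. Hscb and Dnajc12 of the 20 other J-domain genes had it too. Fos stood at 91.9, 70.9 and 45.1 FPKM in lean and at 64.2, 47.1 and 207.8 FPKM in obese libraries, so its groups overlapped where those of Hspa1b did not. This order was looked for after the values were seen, and the part of cell handling in any of these levels was not tested.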

How the data were processed

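Gene-level FPKM, rounded to 2 decimals, was deposited by the authors, and each of the 6 tables holds 1 library. Per the submitters' processing notes the tools were Bowtie and RSEM (no version) and the builds GRCm38 and mm10. For annotation, filters and strandedness, the record is: not given in the sources used here. Low FPKM values of short single-transcript genes showed no common whole-read step, so no count test was run. Values were transformed to log2(FPKM + 1). Genes reaching 1 FPKM in 3 or more libraries, 10788 in all, were fitted with limma 3.58.1 in R 4.3.3 (lmFit, eBayes with trend, group as the only term, 2-sided, Benjamini-Hochberg adjustment) and called under 0.05. The procedure was tested on simulated data. For low genes this scale understates differences. Coordinates and promoters are RefSeq's (GRCm38.p6), matched by gene number for 50 and 41 members. Protein sequences were not used here, and shared 50-base transcript windows (added after seeing the data, as were the patterns of single libraries) stand in for the planned protein identity. Members and lists were chosen with earlier results of these data known. Values in every library are given for called members and for the 2 most abundant members of each family that passed the filter, and for others that a comparison turns on. Of each other list, up to 2 called genes with the smallest adjusted p are named, or, in a list with no call, its gene of smallest p. Alternatives were other pseudocounts, filters and scalings, robust variances, library weights, a replicate block and each library left out.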

Additional observations from a re-analysis of the deposited data

How the results depend on the processing

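All 678 calls became 352 with a minimum of 5 FPKM, 368 with no filter, 434 after quantile normalization and 3116 with library weights, and 318 to 707 with 1 library left out. As reported, 622 calls were higher and 56 lower (91.7% higher). Median-of-ratios scaling gave 441 and 129 (77.4%), quantile normalization 322 and 112 (74.2%) and library weights 2507 and 609 (80.5%). Members called lower, 6 as reported, numbered 3 with no filter, 14 with library weights and 4 to 8 with 1 library left out, and 1 member was called higher with library weights. Hsp90ab1 lost its call in 11 of 16 alternatives, Hspa1a in 5 and Bag3 in 1, while Dnajb1, Hspa1b and Hspb1 lost it in none, and none of the 6 changed direction. The member median of −0.04 was −0.16 with a minimum of 5 FPKM or after median-of-ratios scaling, and 0.018 after TPM scaling. With 1 library left out it was −0.13 to 0.021 (0.021 without lean 3), so its sign gives no direction. In each setting it lay below the median over all genes, which was 0.16 after TPM scaling and 0.12 without lean 3. That is a description, since the members were chosen with this contrast known. The other pathway genes are counted here with the immediate early genes. Those called higher, 3 as reported, were 20 with library weights and 1 after quantile normalization. They were 0 after median-of-ratios scaling or with no filter, and 0 to 4 with 1 library left out. Those called lower, 1 as reported, were 14, 2, 5 and 0 under these settings in that order, and 0 to 2 with 1 library left out. With 3 units in place of 2, 4 promoters in place of 12 matched. With the replicate block, 11 members were called lower, and 5 other pathway genes were called higher and 2 lower. Same-numbered libraries had correlations of deviations of 0.03, 0.06 and 0.19, and lean 1 correlated better with obese 2, and lean 2 with obese 1, than with their own number, so the number is not taken as a pairing. The cause of these changes was not tested, and the unknown depth limits what can be said of low genes such as Hspb1 and Hspa4l.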
